A study of Rattus norvegicus with 12 samples.

Results

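The squamous lineage transcription factors examined here are the genes that specify and mature stratified epithelium: Tp63, Sox2, Klf4, Klf5, Foxe1, Grhl3 and Pitx1. They were taken by name, as the probe sets whose platform gene symbol is one of the 7. All 7 were measured, among 14217 genes with a single symbol, by 14 probe sets: 2 for Tp63, 4 for Sox2, 4 for Klf5 and 1 for each of the others. Where a gene had several, the brightest on average across all 12 arrays stood for it. RNA of rat esophageal tissue was hybridised to Affymetrix expression arrays, 1 array per sample, in 4 groups of 3. The controls received the solvent, dimethyl sulfoxide in water, and the other 9 samples came from rats given NMBA (N-nitrosomethylbenzylamine), a carcinogen used to raise squamous tumors in the esophagus of rats. Injections of 0.2 ml were subcutaneous, given 3 times a week for 5 weeks, with NMBA at 0.3 mg per kg body weight. The NMBA samples were taken at week 6 (labelled early stage), week 15 (middle stage) and week 29 (late stage). The sources used here give no strain, sex or age and no week for the controls. They do not tie a sample to 1 animal either, so the p-values reflect only how far these samples spread, which may be technical. With 1 control group of unstated week, stage cannot be told apart from age, time since the last injection or the occasion of sampling.

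Stratified squamous epithelium renews itself from a basal layer, whose daughter cells move outward, stop dividing and form a cornified surface. Tp63 encodes p63, the p53 relative that keeps basal cells in the squamous program, and Sox2 is the factor that sets the foregut tube on the esophageal rather than the airway path and stays on in basal cells. Klf5 is found in the dividing basal cells, while Klf4, from the same family of zinc finger proteins, is found in the layers above and drives differentiation. Grhl3, a grainyhead factor, switches on barrier genes such as the transglutaminase Tgm1. Foxe1 is a forkhead factor of the embryonic foregut and thyroid, and Pitx1 is a homeodomain factor of the oral region and hindlimb that adult squamous epithelia also use.

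The tissue was labelled as esophageal epithelium, taken from a piece of the organ after its submucosa and muscle had been removed. Epithelial markers were bright, with Krt5 between 12.37 and 13.70 on the log2 scale and Krt13, a keratin of the outer layers, between 13.17 and 14.55. Skeletal muscle markers were also bright, with actin Acta1 between 14.03 and 14.71. An epithelial score, the mean log2 signal of 20 epithelial genes such as Cdh1 and Epcam, was 9.81 ± 0.13 in the solvent group (SD, n = 3) and 9.13 ± 0.11, 10.23 ± 0.17 and 9.02 ± 0.39 in the groups of weeks 6, 15 and 29. A skeletal muscle score of 39 genes ran the other way, in the same order of groups, at 11.55 ± 0.24, 12.12 ± 0.04, 10.48 ± 0.76 and 11.98 ± 0.11. The difference between the 3′ and 5′ GAPDH control signals, which grows as RNA degrades, was 0.40 ± 0.16, 0.11 ± 0.04, 0.40 ± 0.19 and 0.17 ± 0.04. Week 29 replicate 1 stood apart from the other week 29 samples, with an epithelial score of 9.46 against 8.88 and 8.72. Signals come from whole pieces of tissue, in which fewer cells of a type and less RNA per cell cannot be told apart.

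Promoter sequence was found in RefSeq's rat table (build GRCr8) for 5 of the 7 genes. It is shown for Grhl3 and Klf5, members that moved together over the weeks and whose windows hold the core of the KLF recognition element, CACCC. Each window runs from 250 bases before to 50 after the annotated start, 5′ to 3′ on the strand of the gene, and capitals mark CACCC or its complement GGGTG. The Grhl3 window, at chr5:153089841-153090140 on the minus strand, has 3 matches and the Klf5 window, at chr15:82471831-82472130 on the plus strand, has 2.
Grhl3: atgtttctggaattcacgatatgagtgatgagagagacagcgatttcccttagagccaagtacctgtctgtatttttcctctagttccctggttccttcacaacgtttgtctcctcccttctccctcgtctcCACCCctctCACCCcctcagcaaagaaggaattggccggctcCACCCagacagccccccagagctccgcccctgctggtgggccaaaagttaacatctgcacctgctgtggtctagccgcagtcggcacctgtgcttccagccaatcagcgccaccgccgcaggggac
Klf5: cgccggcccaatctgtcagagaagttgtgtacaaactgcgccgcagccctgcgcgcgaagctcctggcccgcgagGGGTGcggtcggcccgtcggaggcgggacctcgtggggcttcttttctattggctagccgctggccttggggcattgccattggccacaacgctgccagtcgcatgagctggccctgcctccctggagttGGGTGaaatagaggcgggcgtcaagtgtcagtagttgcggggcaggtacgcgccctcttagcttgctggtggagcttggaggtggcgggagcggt
The Tp63 window held 1 match and those of Sox2 and Klf4 held 0. The same 5 letters were present in 54.9% of all 33469 promoter windows, so a match does not set these genes apart. None of the 5 windows held, on either strand, the longer KLF elements GGGCGTGG or GGGTGTGG (in 7.35% of all windows), the grainyhead element AACCNGTT (2.1%), the SOX element ATTGTT (11.7%), the forkhead element TGTTTAC (3.78%) or the PITX element TAATCC (7.17%).

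The first question is how the factors are ordered over the 4 groups. For 6 of the 7 the mean signal was highest at week 15, followed by the controls, week 6 and week 29. Foxe1 was ordered differently, with its highest mean at week 29 and its lowest at week 6. All 7 genes differed among the 4 groups by limma's overall F test (adjusted p from 0.000822 for Pitx1 to 0.0235 for Klf4). Of all probe sets tested, 35.1% did so. Among the 14 probe sets of the 7 genes, 12 passed. Without week 15 replicate 3 the F test called 5 of the 7 genes, and without week 15 replicate 2 or week 29 replicate 3 it called 6.

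**Figure D1:**
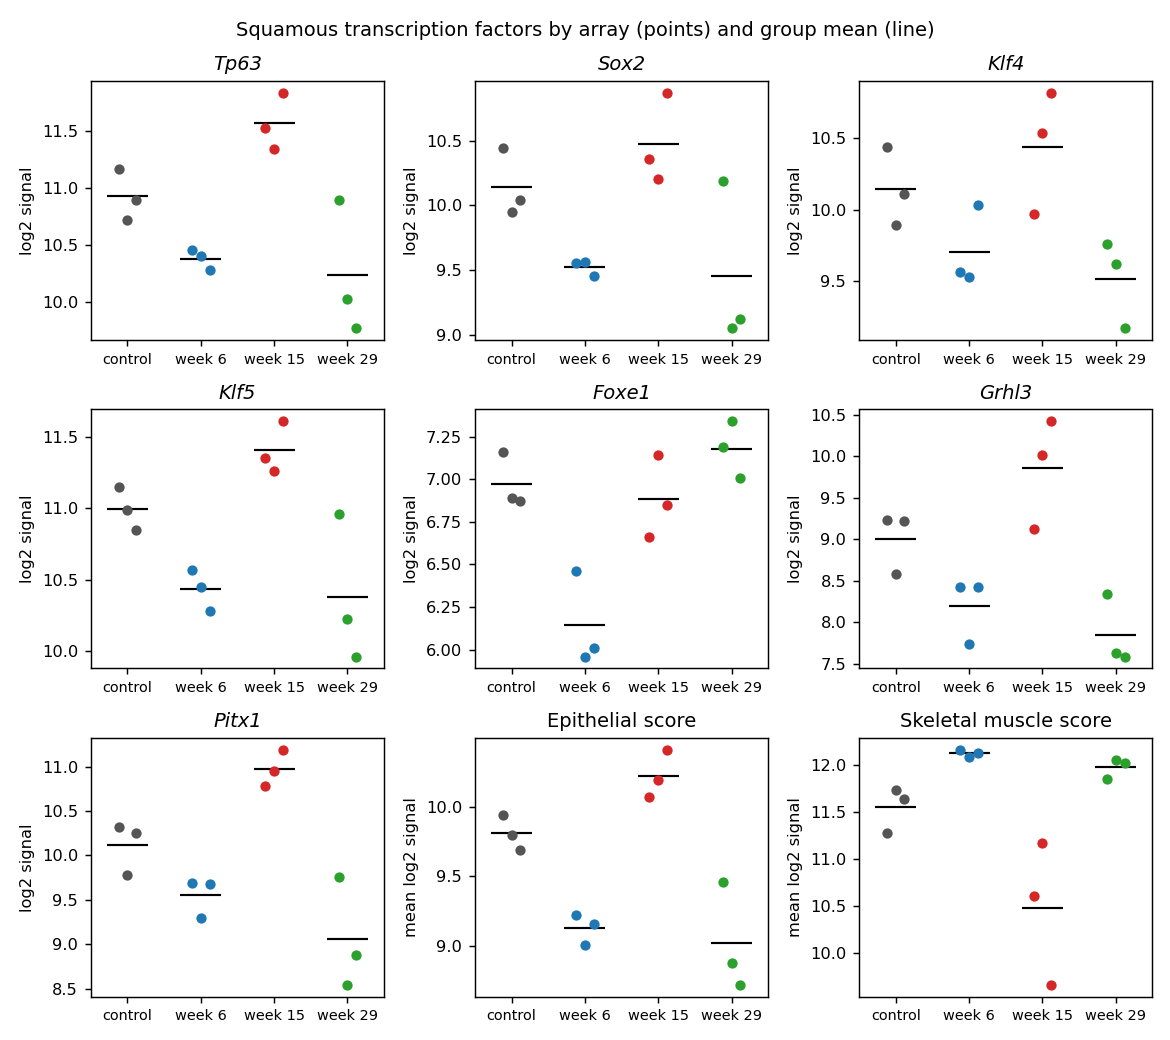
Log2 signal (vertical axis) of each array (points) and the mean of each group of 3 arrays (black line) for the 7 genes, with the epithelial score and the skeletal muscle score in the last panels. For 6 genes the week 15 mean is the highest and the week 29 mean the lowest, as for the epithelial score, while Foxe1 is lowest at week 6 (mean 6.14) and highest at week 29 (mean 7.18); axes do not start at 0 and differ between panels.

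Among the basal factors, Tp63 had control signals of 11.17, 10.72 and 10.90. In the groups of weeks 6, 15 and 29 it had 10.46, 10.40 and 10.28, then 11.53, 11.35 and 11.84, then 10.90, 10.03 and 9.77. The week 15 samples were all above every other sample and the week 6 samples all below every control. At week 29, replicate 1 lay within the control range and the other 2 samples below it. Sox2 had control signals of 10.44, 9.95 and 10.04, followed by 9.55, 9.56 and 9.45 (week 6), 10.36, 10.20 and 10.87 (week 15) and 10.19, 9.05 and 9.12 (week 29). Its week 15 and control samples overlapped, and week 29 replicate 1 again sat among the controls. Klf5 had control signals of 11.15, 10.99 and 10.85, followed by 10.57, 10.45 and 10.28 (week 6), 11.35, 11.26 and 11.61 (week 15) and 10.96, 10.22 and 9.96 (week 29). It had the same layout as Tp63, with week 15 above and week 6 below every control, and only week 29 replicate 1 within the control range.

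Among the differentiation factors, Klf4 had control signals of 10.44, 9.89 and 10.11, followed by 9.56, 9.53 and 10.03 (week 6), 9.97, 10.54 and 10.82 (week 15) and 9.76, 9.62 and 9.17 (week 29). Its week 6 and week 15 samples both overlapped the controls, and its week 29 samples were all below them. Grhl3 had control signals of 9.23, 8.58 and 9.22, followed by 8.43, 7.74 and 8.43 (week 6), 9.12, 10.02 and 10.42 (week 15) and 8.34, 7.63 and 7.59 (week 29). It covered the widest range of the 7 genes, 2.83 between its lowest and highest array, and both its week 6 and week 29 samples were below every control.

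Of the regional factors, Pitx1 had control signals of 10.32, 9.78 and 10.25, followed by 9.69, 9.29 and 9.68 (week 6), 10.78, 10.95 and 11.19 (week 15) and 9.76, 8.54 and 8.88 (week 29). The week 15 samples lay above every other sample, and the week 6 and week 29 samples below every control. Foxe1 had control signals of 7.16, 6.89 and 6.87, followed by 6.46, 5.96 and 6.01 (week 6), 6.66, 7.14 and 6.85 (week 15) and 7.19, 7.34 and 7.01 (week 29). Its week 6 samples were the lowest of all 12, and its control, week 15 and week 29 samples overlapped. Week 29 replicate 1, which stood among the controls for Tp63, Sox2 and Klf5, was between the other 2 week 29 samples for Foxe1.

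At week 6, which asks what the early stage looks like, all 7 factors had a lower mean than in controls and 1, Foxe1, passed the test. In log2 units Foxe1 fell by 0.83 ± 0.16 (SE of the fit, 3 arrays a group, limma adjusted p = 0.0218), or 1.78-fold, from 6.97 to 6.14. The other 6 differences lay between -0.81 for Grhl3 and -0.44 for Klf4, with adjusted p from 0.108 to 0.246. The samples did not overlap for 6 of the 7 genes, all but Klf4. Over all probe sets, 2.44% were called lower at week 6 and 17.2% were lower without overlap. The members' median was -0.56, against -0.03 for all 14217 genes. Beside these values, the epithelial score spanned 9.01 to 9.22 at week 6, below the control span of 9.69 to 9.94, and the muscle score was higher without overlap. The part of cell makeup and of the GAPDH value in them was not tested. Foxe1 lost its call without control replicate 1 (adjusted p = 0.0885), control replicate 3 (0.0744), week 6 replicate 2 (0.07) or week 6 replicate 3 (0.0763). Without week 29 replicate 1, or with the 6 arrays fitted by themselves, 4 factors were called lower, Foxe1 with Tp63, Sox2 and Klf5. Over all probe sets, leaving out 1 array gave 1 to 3454 calls in this comparison.

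At week 15, the middle stage, none of the 7 factors passed against controls (0 genes by limma, and 3, Tp63, Grhl3 and Pitx1, at an unadjusted p under 0.05). Of all 31042 probe sets, 7735 had an unadjusted p under 0.05 in this comparison. Pitx1 was at 0.86 ± 0.26 (adjusted p = 0.0643), Grhl3 at 0.84 ± 0.32 (0.132), Tp63 at 0.64 ± 0.24 (0.119) and Klf5 at 0.41 ± 0.21 (0.239). Sox2 and Klf4 were at 0.33 and 0.29, and Foxe1 at -0.09. For Tp63, Klf5 and Pitx1 every week 15 sample was above every control. Over all probe sets, 1.7% were called higher at week 15 and 13.2% were higher without overlap. The members' median was 0.41, against 0.03 for all genes. The epithelial score spanned 10.07 to 10.41 at week 15, above the controls, and the muscle score spanned 9.66 to 11.17, below the control span of 11.28 to 11.73. Pitx1 was called without week 29 replicate 1 (adjusted p = 0.0155) or week 29 replicate 2 (0.046), Tp63 without week 29 replicate 1 (0.0229) and Grhl3 without week 15 replicate 1 (0.0367). Over all probe sets, leaving out 1 array gave 881 to 3057 calls in this comparison.

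At week 29, the late stage, Grhl3 and Pitx1 fell and the other 5 factors did not pass. In log2 units Grhl3 fell by 1.16 ± 0.32 (limma adjusted p = 0.0349), or 2.23-fold, from 9.01 to 7.85. Pitx1 fell by 1.06 ± 0.26 (adjusted p = 0.0235), or 2.08-fold, from 10.11 to 9.06. Tp63, Sox2, Klf4 and Klf5 were at -0.70, -0.69, -0.63 and -0.62, with adjusted p between 0.0616 and 0.0962, and Foxe1 was at 0.20 ± 0.16 (0.403). Every week 29 sample was below every control for Klf4, Grhl3 and Pitx1. Over all probe sets, 7.44% were called lower at week 29 and 15.7% were lower without overlap. The members' median was -0.69, against 0.01 for all genes. Grhl3 and Pitx1 lost their calls without control replicate 1 (adjusted p = 0.112 and 0.0859), control replicate 3 (0.111 and 0.0799), week 29 replicate 2 (0.117 and 0.0905) or week 29 replicate 3 (0.143 and 0.106). Without week 29 replicate 1, the sample with the highest epithelial score of its group, 5 factors were called lower: Tp63 at -1.03 (adjusted p = 0.00356), Sox2 at -1.06 (0.00571), Klf5 at -0.91 (0.00351), Grhl3 at -1.40 (0.0171) and Pitx1 at -1.41 (0.00256). Without week 15 replicate 1, Klf4 was called too (-0.63, adjusted p = 0.0492). Over all probe sets, leaving out 1 array gave 274 to 6120 calls in this comparison.

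**Figure D2:**
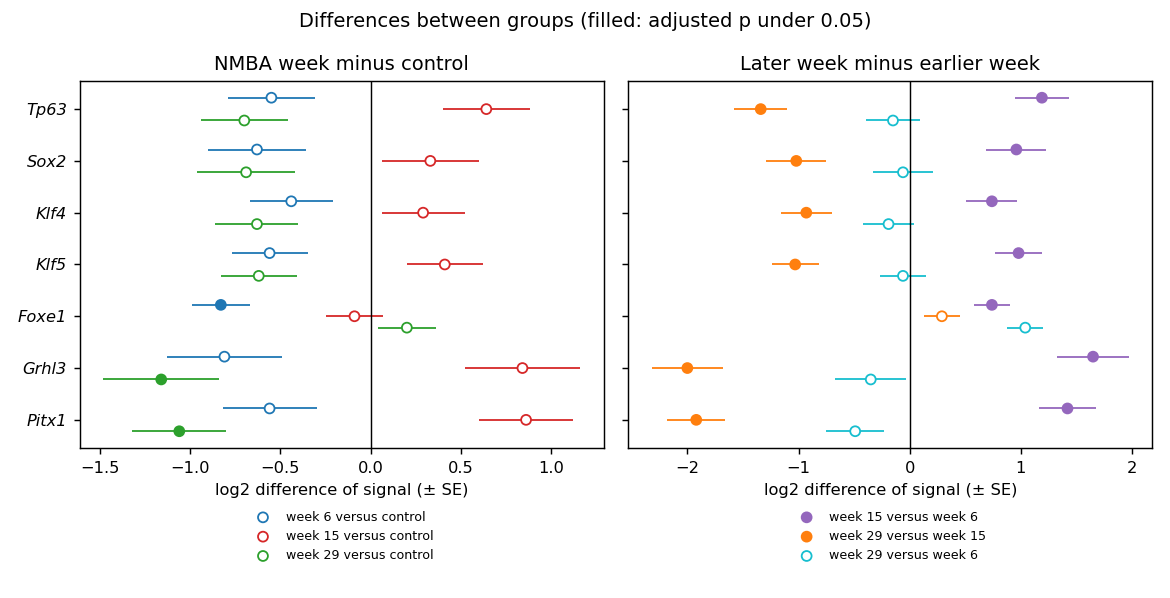
Log2 difference of signal (horizontal axis, ± SE) for each of the 7 genes, each NMBA week minus control on the left and later minus earlier week on the right; filled points have a limma adjusted p under 0.05. On the right all 7 week 15 minus week 6 points are filled and positive and 6 week 29 minus week 15 points are filled and negative, with Foxe1 at 0.29 and open.

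The largest differences were between NMBA weeks, which compares treated groups with each other. From week 6 to week 15 all 7 factors rose, where 20.3% of all probe sets were called higher. In log2 units Grhl3 rose by 1.65 ± 0.32 (limma adjusted p = 0.00206), or 3.14-fold, and Pitx1 by 1.42 ± 0.26 (adjusted p = 0.00133), or 2.68-fold. Tp63 rose by 1.19, Klf5 by 0.98, Sox2 by 0.96, and Klf4 and Foxe1 by 0.74 each. For 6 genes the groups did not overlap, as for 27.8% of all probe sets, and for Klf4 they did. Klf4 lost its call without week 6 replicate 1 (adjusted p = 0.0778), week 6 replicate 2 (0.0821), week 15 replicate 2 (0.0617) or week 15 replicate 3 (0.095). Sox2 lost it without week 15 replicate 3 (0.0575), the sample with the lowest muscle score. Beside the rise, the epithelial score went from 9.13 to 10.23, the muscle score from 12.12 to 10.48 and the GAPDH value from 0.11 to 0.40. With the epithelial score as a covariate none of the 7 was called, and the differences of Tp63, Sox2 and Klf5 were -0.29, -0.69 and -0.34. None was called with the muscle score as a covariate either, with Tp63 at 0.44, Grhl3 at 0.86 and Pitx1 at 0.87.

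From week 15 to week 29, 6 factors fell and Foxe1 did not, where 18.3% of all probe sets were called lower. In log2 units Grhl3 fell by 2.00 ± 0.32 (limma adjusted p = 0.000543), or 4-fold, and Pitx1 fell by 1.92 ± 0.26 (adjusted p = 0.000199), or 3.77-fold. The differences were -1.34 for Tp63, -1.03 for Klf5, -1.02 for Sox2 and -0.93 for Klf4, and Foxe1 was at 0.29 ± 0.16 (0.178). The 6 genes that fell had groups that did not overlap, as for 23.2% of all probe sets. Sox2 lost its call without week 29 replicate 2 (adjusted p = 0.0513) or week 29 replicate 3 (0.0514). The epithelial score went from 10.23 to 9.02, the muscle score from 10.48 to 11.98 and the GAPDH value from 0.40 to 0.17, and none of the 7 was called with either score as a covariate.

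Between weeks 6 and 29, limma called 0 of 31042 probe sets (0%), with 3005 at an unadjusted p under 0.05. The lowest limma adjusted p in this comparison was 0.172. Foxe1 had it as a tied value, shared by Klf6 and possibly by others, so Foxe1 need not rank first. Foxe1 was 1.04 ± 0.16 higher at week 29 (n = 3 per group), or 2.05-fold, with no overlap between the groups. An absence of overlap in that direction was found for 11.4% of all probe sets. The other 6 factors were between -0.49 for Pitx1 and -0.06 for Sox2 and Klf5, and each had groups that overlapped.

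The probe sets of 1 gene did not all give the same picture. For Klf5, all 4 had their lowest mean at week 29. From week 15 to week 29 all 4 Klf5 probe sets fell, 1394039_at (-1.03), 1368363_at (-1.35), 1398159_at (-1.31) and 1385961_at (-0.76). From week 6 to week 15 the first 3 rose by 0.98, 1.16 and 1.26, and 1385961_at was at 0.35 (limma adjusted p = 0.276). Against controls, 1398159_at rose by 0.96 at week 15 (adjusted p = 0.0361) and 1385961_at fell by 0.84 at week 29 (adjusted p = 0.0377).

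For Sox2, the probe set 1381874_at had tighter control samples than the brighter 1379942_at, with 9.55, 9.58 and 9.55 in controls and 9.28, 8.41 and 8.56 at week 29. It fell by 0.81 ± 0.18 at week 29 against controls (limma adjusted p = 0.018), where 1379942_at was at -0.69 (0.0962). The Sox2 probe set 1375153_at, with a mean of 6.72, spread from 5.56 to 7.42 within the controls and fell by 2.35 between weeks 15 and 29. The dimmest, 1389826_at, had a mean of 3.71, brighter than 8.1% of all probe sets, and passed no test. For Tp63, the dim probe set 1371107_a_at (mean 6.71) was at 0.42 at week 6 against controls, with the sign opposite to that of 1369108_at, and neither passed. It fell by 0.86 between weeks 15 and 29 (adjusted p = 0.0305) and did not pass elsewhere. Which transcripts each probe set detects was not analysed here.

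**Figure D3:**
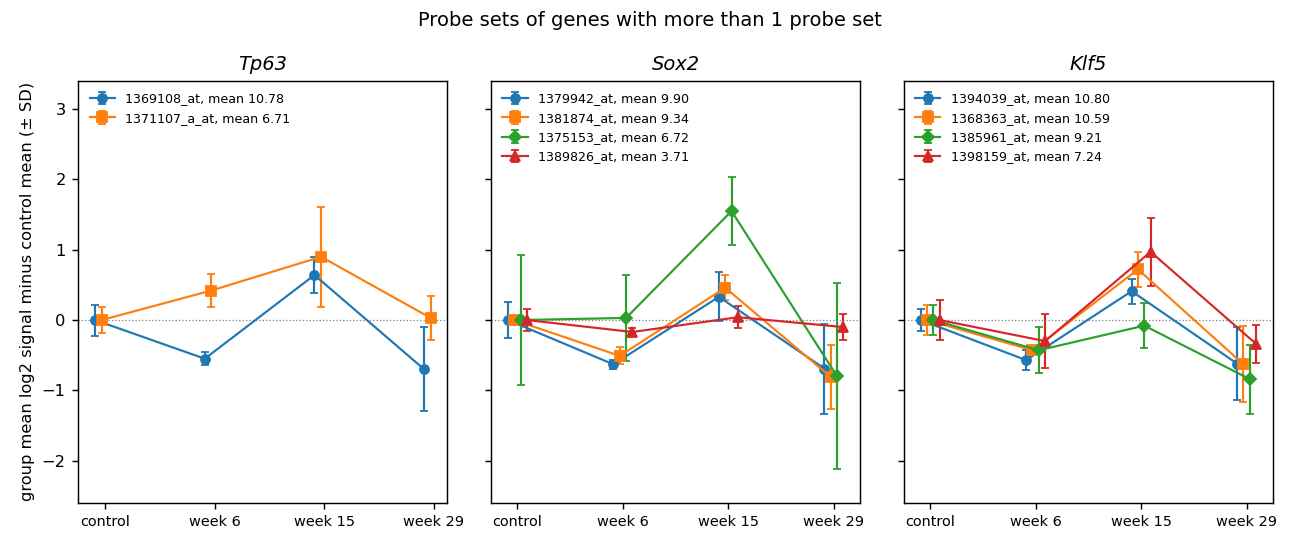
Group mean log2 signal minus the control mean (vertical axis, ± SD of 3 arrays) over the 4 groups for each probe set of Tp63, Sox2 and Klf5, with the mean signal of each probe set in the legend. The brightest probe set of each gene dips at week 6 and peaks at week 15, while the dim Tp63 probe set is at 0.42 at week 6 and the dim Sox2 probe set 1389826_at stays within 0.17 of its control mean.

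Tp63, Sox2, Klf5 and, less closely, Klf4 followed the epithelial score, as the difference between each gene and that score shows. None of the 7 genes is part of the score. Klf5 lay 1.19 ± 0.03 above the score in controls (SD of 3 arrays), and 1.30 ± 0.16, 1.18 ± 0.11 and 1.36 ± 0.13 above it in the groups of weeks 6, 15 and 29. Over the 12 arrays this difference ranged over 0.43, where the Klf5 signal itself ranged over 1.66. For Tp63 the ranges were 0.53 and 2.07, for Sox2 0.72 and 1.82, and for Klf4 0.97 and 1.66. For these 4 genes each group mean of the difference was within 0.24 of the control mean, and only Klf5 at week 29 did not overlap the controls (0.17 higher). Between weeks 6 and 15 the Klf4 difference changed by -0.36, with groups that overlapped.

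By this subtraction, which takes gene and score to change by equal amounts, Grhl3, Pitx1 and Foxe1 departed further from the epithelial score in log2 units. With the score as a covariate the genes were ranked differently. The week 29 minus week 15 difference was then -0.19 for Grhl3, -0.28 for Pitx1 and 0.69 for Foxe1. It was 0.80 for Sox2, 0.41 for Klf5, 0.29 for Tp63 and 0.22 for Klf4, and none was called. The difference ranged over 1.28 for Grhl3 and 1.12 for Pitx1, where their signals ranged over 2.83 and 2.65. Relative to the range of its own signal, Klf4 kept more than either. Pitx1 minus the score was 0.30 ± 0.30 in controls, and 0.42 ± 0.12, 0.75 ± 0.03 and 0.04 ± 0.33 in the groups of weeks 6, 15 and 29. Its week 29 mean was below its week 15 mean, with a difference of -0.71. Grhl3 minus the score was -0.80 ± 0.39, -0.93 ± 0.29, -0.37 ± 0.51 and -1.17 ± 0.07 in the same order, with a difference of -0.79 between the last 2. For both, the week 15 and week 29 samples did not overlap (two-sided exact permutation p = 0.1, the smallest that 3 against 3 can give, so the design cannot reach the threshold). Foxe1 minus the score went the other way, at -2.84 ± 0.07, -2.99 ± 0.21, -3.34 ± 0.26 and -1.84 ± 0.38. The 3 week 29 values, -2.27, -1.54 and -1.72, were above those of all 9 other arrays. The week 29 difference from controls was 0.99 and that from week 15 was 1.5 (both with the same exact permutation p of 0.1). The Foxe1 signal itself was 0.20 higher at week 29 than in controls, while the subtracted score went from 9.81 to 9.02. Foxe1 has 1 probe set, with a mean of 6.79, near the 6.71 of the dim Tp63 probe set. In all, 42 such differences were computed, 9 of them with groups that did not overlap, and no p adjusted over the 42 can be lower than 0.1. The share of all probe sets without overlap after the score is subtracted was not computed, so the 9 cannot be judged against it. Foxe1 is the only 1 of the 7 whose range over the arrays was wider after the score was subtracted, 2.02 against 1.38.

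**Figure D4:**
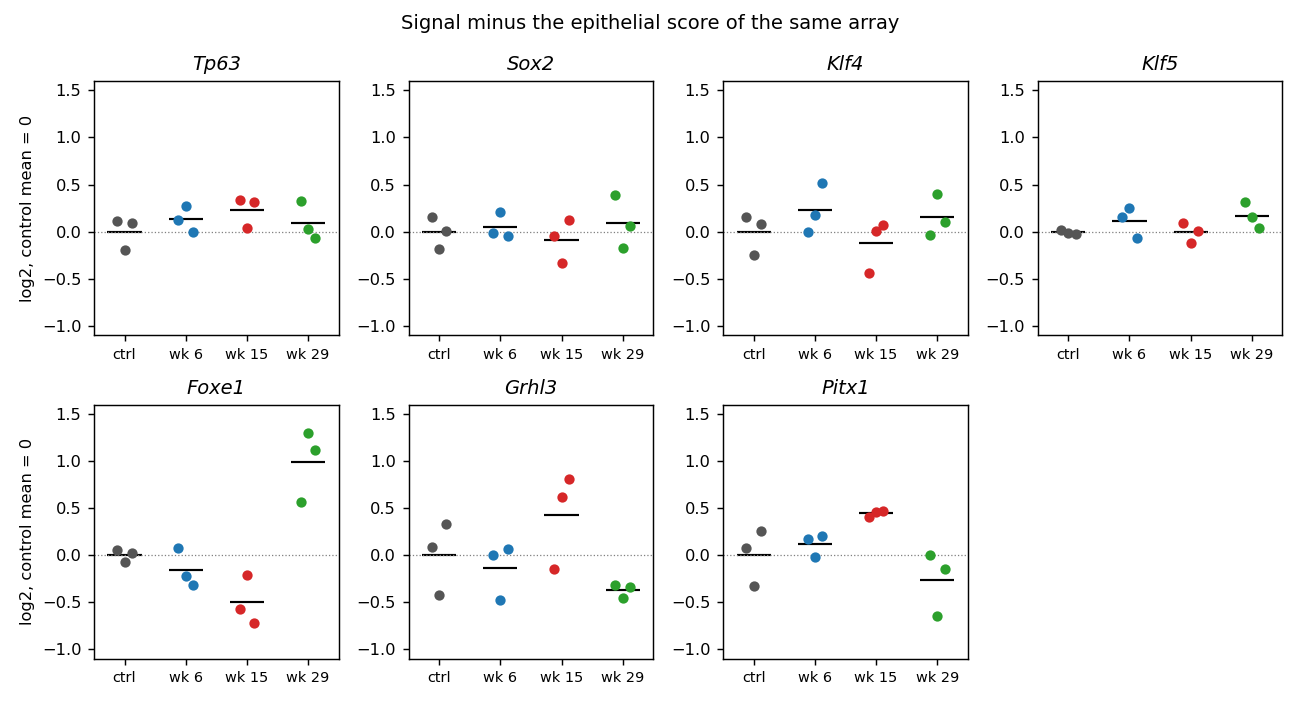
Log2 signal of each gene minus the epithelial score of the same array (vertical axis, set to 0 at the control mean), with 3 arrays per group as points and the group mean as a line. The group means of Tp63, Sox2, Klf4 and Klf5 stay within 0.24 of 0, Grhl3 and Pitx1 are higher at week 15 than at week 29, and Foxe1 is highest at week 29, by 0.99 over the controls.

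A fit with the epithelial score as a covariate called none of the 7 factors in any comparison, by either the contrasts or the overall F test. In that fit limma called at most 18 probe sets of 31042 in any comparison. Of the 13 differences between weeks 6 and 15 or 15 and 29 that had been called, 9 changed sign, among them all those of Tp63, Sox2, Klf4 and Klf5. With the muscle score as a covariate, none of the 7 was called either, and 0 probe sets of all were called between weeks 6 and 15. Then the Grhl3 and Pitx1 differences between weeks 15 and 29 were -1.28 and -1.41, and that of Sox2 was -0.11. With the GAPDH value as a covariate 4 factors rose from week 6 to week 15 (Klf5, Foxe1, Grhl3 and Pitx1) and 5 fell from week 15 to week 29 (all but Sox2 of the 6). The share of all probe sets called in that fit is not given here, so these counts cannot be judged against it. How many of all probe sets changed sign in the other fits was not computed.

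The genes most like each factor were found by Pearson's r over the 12 arrays among all single-symbol genes, as a description with no test, since they were picked for the highest r. Klf5 was most like Tmem30b (r = 0.989), Tp63 (0.985) and the cadherin gene Cdh1 (0.985). Tp63 was most like Chdh (r = 0.989), the hexokinase gene Hk1 (0.988) and Esrp1 (0.988), a regulator of epithelial splicing that is part of the epithelial score. Sox2 was most like Paqr5, Sowahc and Gtf2h1 (0.974 to 0.982), and Klf4 was most like Ecm1, Tmbim1 and Capza1 (0.977 to 0.982). Grhl3 was most like Tm7sf2, Hacd2 and Zdhhc13 (0.982 to 0.983). Pitx1 was most like the glucose transporter gene Slc2a1 (0.987), Znf750 (0.984), itself a factor of squamous differentiation, and Mgst2 (0.982). For Foxe1 the nearest genes were less close: Hepacam (0.879), Syt11 (0.847) and Cd79b (0.837). These arrays share their groups and tissue makeup, so r values are high for many pairs.

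Other transcription factors of squamous epithelia form a list of 62, of which 49 were measured. From week 6 to week 15, 31 of the 49 rose, 2 fell and 16 were not called, and from week 15 to week 29, 33 fell, 2 rose and 14 were not called. Of all 14217 genes 43.9% and 43.6% were called in these comparisons, with medians of 0.07 and -0.02, and the list medians were 0.71 and -0.78. In the 2 comparisons Znf750 was at 1.68 and -2.15, Trim29 at 1.47 and -1.83, and Grhl1, a relative of Grhl3, at 1.42 and -1.68. The 2 exceptions were Satb1, a chromatin organiser (-2.26 and 2.32), and Tead1, a partner of the Hippo pathway's coactivators (-1.36 and 1.33).

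Against controls, 9 of the 49 fell at week 6 and 0 rose (median -0.38), led by Hopx (-1.12), Id1 (-0.92), Grhl1 (-0.82) and Foxq1 (-0.74). At week 15, 5 rose and 1 fell (median 0.27): Ehf rose by 0.84, Tfap2a by 0.73, Cebpa by 0.58, Fosl2 by 0.54 and Dlx3 by 0.43, and Tead1 fell by 0.81. At week 29, 18 fell and 0 rose (median -0.39), led by Hopx (-1.51), Znf750 (-1.24), Trim29 (-1.23) and Id1 (-1.22). Of all genes 8.83%, 9.92% and 19.3% were called in these 3 comparisons, and of the genes of the epithelial score 50%, 5% and 80%. Weeks 6, 15 and 29 are set against the same controls, so these counts are not independent of each other.

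Genes of the basal layer that are known as targets of p63, alone or with Sox2, moved mostly in the direction of Tp63. Of 33 measured, 25 rose and 4 fell from week 6 to week 15 (median 0.89), and 24 fell and 4 rose from week 15 to week 29 (median -0.89). These are 87.9% and 84.8% of the list, against 43.9% and 43.6% of all genes. Of the 20 genes of the epithelial score, 19 rose in the first comparison and 19 fell in the second (medians 1.1 and -1.2). Whether the targets moved apart from the epithelium as a whole was not tested. The keratin gene Krt17 was at 1.84 and -2.07, and Sfn, the 14-3-3 sigma gene, at 1.31 and -1.92. Those that fell and those that rose against the rest were Satb1, Gpc1 (-0.91 and 1.01) and Dst (-0.64 and 0.69) in both comparisons, with Igfbp6 (-0.52) in the first and Bcam (0.39) in the second. Against controls, 6 fell at week 6 (median -0.55), including Igfbp3 (-1.05), Krt14 (-0.84), Fgfr3 (-0.79) and the hemidesmosome integrin gene Itgb4 (-0.75). At week 15, 2 fell, Dst (-0.62) and Gpc1 (-0.50), and 0 rose (median 0.28). At week 29, 16 fell and 1 rose (median -0.60), with Krt17 at -1.84, Sfn at -1.47, Igfbp3 at -1.42 and Krt14 at -1.23, and Gpc1 at 0.52. Against controls 18.2%, 6.06% and 51.5% of the list was called at weeks 6, 15 and 29, where all genes had 8.83%, 9.92% and 19.3%. For the genes of the epithelial score these shares were 50%, 5% and 80%. The list shares Krt5, Perp and Dsp with the epithelial score.

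Genes of the outer layers known to lie downstream of Klf4, Grhl3 or Znf750 had the largest medians of the 5 lists of squamous and foregut genes. Of 33 measured, 28 rose and 1 fell from week 6 to week 15 (median 1.29), and 27 fell and 1 rose from week 15 to week 29 (median -1.55). These are 87.9% and 84.8% of the list, against 43.9% and 43.6% of all genes. Tgm1, the transglutaminase gene controlled by Grhl3, rose by 2.17, and the cornified envelope genes Sprr3 and Sprr2d rose by 2.21 and 2.18. From week 15 to week 29, Stfa3 was at -3.90, Sprr3 at -3.61, Sprr1b at -3.60 and Cnfn at -3.06. The 1 exception in both was Ctsh, a lysosomal cathepsin gene (-1.17 and 1.05). Against controls, 6 fell at week 6 (median -0.60), led by Serpinb2 (-1.41), Tgm1 (-1.30) and Anxa1 (-1.21). At week 15, 5 rose and 1 fell (median 0.64), with Sprr2d at 1.39, Dsc1 at 1.29, Cdsn at 1.25, Pla2g4e at 1.01 and Alox12 at 0.70, and with Ctsh at -0.79. At week 29, 19 fell and 0 rose (median -0.95), led by Stfa3 (-2.97), Sprr3 (-2.68), Sprr1a (-2.62) and Sprr1b (-2.61). Against controls 18.2%, 18.2% and 57.6% of the list was called at weeks 6, 15 and 29, where all genes had 8.83%, 9.92% and 19.3%. For the genes of the epithelial score these shares were 50%, 5% and 80%.

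A list of growth genes set around Klf5 also holds general markers of dividing cells, such as Mki67 and Top2a. Of its 17 measured genes, 12 rose and 1 fell from week 6 to week 15 (median 0.68). Those that rose included the growth factor binding protein gene Fgfbp1 (1.18), Cdk1 (1.05), Mki67 (1.05) and Top2a (1.01). The 1 that fell was the growth factor gene Pdgfa (-0.27). From week 15 to week 29, 13 fell and 2 rose (median -0.84), with Fgfbp1 at -1.51, the cyclin gene Ccnd1 at -1.09 and Birc5 at -0.92, and with the cell cycle inhibitor gene Cdkn1a at 0.97 and Pdgfa at 0.41. In these comparisons between weeks 76.5% and 88.2% of the list was called, against 43.9% and 43.6% of all genes. Of the genes of the epithelial score 95% were called in each. Whether the list moved apart from the epithelium as a whole, or through Klf5, was not tested. Against controls 2 fell at week 6 (Birc5 at -0.73 and Ccnd1 at -0.69), 1 fell at week 15 (Pdgfa at -0.43) and 5 fell at week 29, Fgfbp1 (-1.24), Ccnd1 (-1.03), Birc5 (-0.68), Ccne1 (-0.63) and Mcm2 (-0.52). These are 11.8%, 5.88% and 29.4% of the list, against 8.83%, 9.92% and 19.3% of all genes. For the genes of the epithelial score these shares were 50%, 5% and 80%.

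Regulators of foregut patterning that work around Sox2, Foxe1 and Pitx1 were divided. Of 22 measured, 2 rose and 3 fell from week 6 to week 15, and 2 rose and 3 fell from week 15 to week 29, with medians of 0.05 and -0.10. In each comparison 22.7% of this list was called, against 43.9% and 43.6% of all genes. Pax9, a factor of pharyngeal and esophageal epithelium, was at 1.21 and -1.37, and the beta-catenin gene Ctnnb1 at 0.47 and -0.43. The BMP antagonist gene Nog was at -2.15 and 2.13, and Isl1 at -1.90 and 1.83. Wnt5a fell by 0.43 in the first comparison and Foxp1 fell by 0.40 in the second. Nog rose by 1.01 and 0.99 against controls at weeks 6 and 29 and was at -1.14 at week 15. The others called against controls were Foxp1 (-0.52) and Ctnnb1 (-0.41) at week 6, Isl1 (-1.06) at week 15, and Sfrp2 (-1.68), Pax9 (-0.84), Foxp1 (-0.67) and Ctnnb1 (-0.38) at week 29. The genes named in these 5 lists outside the largest 4 of a comparison were chosen after their values were seen.

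Other cell types that the tissue could hold were checked by their markers. Of 18 fibroblast genes, 13 fell at week 15 and 4 at week 29 against controls. From week 6 to week 15, 12 fell and 1 rose, and from week 15 to week 29, 11 rose. The fibroblast score was 10.27 ± 0.33 in controls (SD of 3 arrays) and 10.08 ± 0.14, 9.37 ± 0.21 and 10.03 ± 0.25 in weeks 6, 15 and 29. The score of 18 myeloid and mast cell genes was 6.85 ± 0.30, 6.64 ± 0.12, 6.62 ± 0.33 and 6.54 ± 0.16. Of 16 endothelial genes, a cell type that also uses Klf4, 4 fell at week 6, 4 at week 15 and 11 at week 29 against controls, and the score was 8.57 ± 0.14 in controls and 8.17 ± 0.03, 8.24 ± 0.19 and 7.99 ± 0.15 in weeks 6, 15 and 29. Of 15 Schwann cell and nerve genes, cells that also use Sox2, 3 rose and 7 fell from week 6 to week 15 and 8 rose and 3 fell from week 15 to week 29. The defining marker Sox10 lay between 6.18 and 6.93. The smooth muscle score was 9.77 ± 0.37, 9.70 ± 0.53, 9.32 ± 0.05 and 9.28 ± 0.18 in the same order. The score of 21 genes of simple and glandular epithelium lay between 5.33 and 5.88 in all 12 arrays, and its gastric and mucous markers had signals of 3.86 to 4.19 (Gkn1), 4.25 to 4.59 (Tff2), 5.18 to 5.87 (Muc5ac) and 6.95 to 7.53 (Tff1). The part of these cell types in the members' values was not tested.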

How the data were processed

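Each of the 12 esophageal samples has 1 array, and the sample titles give the 4 groups of 3. The values are deposited log2 signals per probe set, made by the authors with Expression Console (Affymetrix), according to the submitters' processing notes. Which summarization was used is not stated in the sources used here, and the log2 scale was read from the values (2.49 to 14.71, array medians 6.41 to 6.48). Detection calls were not used. Precision is limited by the number of arrays.

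The table has 31099 probe sets. Without the 57 array controls, 31042 remained and were tested with no filter. The platform annotation gave 1 symbol to 20826, several to 436 (not named) and did not list 9780. A single two-sided linear model of the 4 groups (lmFit, eBayes) was fitted in R 4.3.3 with limma 3.58.1, with 8 residual degrees of freedom, with Benjamini-Hochberg adjustment over 31042 probe sets and calls at an adjusted p under 0.05. The fit was tested on simulated data. Gene lists are described by counts and medians, with no set test. A score is the mean log2 signal of a list in 1 array. Named genes are the 7 members with all their probe sets, up to 4 called genes of each list per comparison with the largest difference, the 3 genes most like each member, and a few markers. The members and lists were chosen with earlier results of these data known. No 2 arrays were identical (7 to 47 equal values in a pair). Alternatives covered centring, quantile normalization, a filter on dim signal, the samples fitted, the replicate number as a block, an intensity trend, the mean of a gene's probe sets, 3 covariates and leaving out each array.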

Additional observations from a re-analysis of the deposited data

Results flagged for a closer look

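The signals of all 7 factors differed between the week 6 and week 15 groups, by a direct limma contrast in which the controls cancel (n = 3 per group, adjusted over all probe sets). The differences on the log2 scale were 1.65 for Grhl3, 1.42 for Pitx1, 1.19 for Tp63, 0.98 for Klf5, 0.96 for Sox2, and 0.74 for both Klf4 and Foxe1. Between weeks 15 and 29 the signals of 6 of the 7 differed, with -2.00 for Grhl3, -1.92 for Pitx1, -1.34 for Tp63, -1.03 for Klf5, -1.02 for Sox2 and -0.93 for Klf4. The epithelial score, the muscle score and the GAPDH value also differed between these weeks. With the epithelial or the muscle score as a covariate 0 of the 7 were called in either contrast, and with the epithelial score 9 of the 13 differences changed sign. Few probe sets of any kind were called with the epithelial score, and none with the muscle score between weeks 6 and 15. A count of 0 there does not set the 7 apart. The share called with the muscle score between weeks 15 and 29 is not given here, and sign changes over all probe sets were not computed. Groups of 3 arrays were too small to be screened for outlying samples.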

How the results depend on the processing

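Centring on the array median and an intensity trend left every count of called factors as it was. The 1 call at week 6 against controls became 4 when those 6 arrays were fitted by themselves and 0 with the muscle score, the epithelial score or the GAPDH value as a covariate, where Foxe1 was at -0.89, -0.61 and -0.94 against -0.83. The count of 0 at week 15 against controls became 1 under quantile normalization, the mean of a gene's probe sets or the replicate block. The 2 calls at week 29 became 4 with dim probe sets left out and 0 with each of the 3 covariates. In the same order of covariates Grhl3 was then at -0.95, 0.03 and -1.38 against -1.16, and Pitx1 at -0.91, 0.01 and -1.08 against -1.06. The 7 rises from week 6 to week 15 became 0 with the muscle or the epithelial score and 4 with the GAPDH value, and the 6 falls from week 15 to week 29 became 0 with either score. The overall F test called 0, 0 and 3 of the 7 with the muscle score, the epithelial score and the GAPDH value. Shares of all probe sets called with the GAPDH value are not given here, so its counts cannot be judged against them. Leaving out 1 array gave 0 to 4 calls at week 6, 0 to 2 at week 15 and 0 to 5 at week 29, against 5 to 7 rises to week 15, 5 to 6 falls to week 29 and 5 to 7 by the F test. Over all 31042 probe sets, calls in either direction then ranged from 1 to 3454, 881 to 3057 and 274 to 6120 against controls. They ranged from 8965 to 11704 and 8115 to 11490 between those weeks, and from 8861 to 11232 by the F test. Without the week 15 arrays, an alternative chosen after seeing the data, 1 factor was called at week 6 and 3 at week 29. Between weeks 6 and 29 no alternative called any of the 7.

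Deviations of same-numbered samples of different groups had r from -0.41 to 0.29 over 18 pairs, each across probe sets (median 0.08). Pairs with different numbers had r from -0.34 to 0.52 over 36 pairs (median -0.02). The main fit did not pair the samples, and this check, with 3 arrays a group, cannot exclude a pairing. The replicate block kept 40 of 42 member results on their side of the threshold. It added Pitx1 at week 15 (adjusted p = 0.038) and Klf5 at week 29 (0.0499).

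With the epithelial score as a covariate these log2 differences changed sign: at week 6 against controls, Tp63 0.37, Sox2 0.40, Klf4 0.21, Klf5 0.25, Grhl3 0.21 and Pitx1 0.36. At week 15 against controls, Sox2 -0.30, Klf4 -0.10 and Klf5 -0.09. At week 29 against controls, Tp63 0.37, Sox2 0.50, Klf4 0.12, Klf5 0.33, Grhl3 0.03, Pitx1 0.01, Znf750 0.33, Trim29 0.04, Fgfbp1 0.01 and Birc5 0.16. For week 15 minus week 6, Tp63 -0.29, Sox2 -0.69, Klf4 -0.31, Klf5 -0.34, Pitx1 -0.06, Znf750 -0.49, Trim29 -0.28, Krt17 -0.22, Sfn -0.41, Fgfbp1 -0.54, Cdk1 -0.33, Mki67 -0.53 and Top2a -0.53. For week 29 minus week 15, Tp63 0.29, Sox2 0.80, Klf4 0.22, Klf5 0.41, Znf750 0.24, Trim29 0.10, Krt17 0.20, Fgfbp1 0.39, Cdkn1a -0.10, Birc5 0.35 and Ctnnb1 0.05. For week 29 minus week 6, Sox2 0.10 and Klf5 0.08. With the muscle score as a covariate, sign changes were found at week 15 against controls (Sox2 -0.32, Klf4 -0.09 and Foxe1 0.01), for week 15 minus week 6 (Sox2 -0.04). Leaving out 1 array changed the sign of some differences that had not passed: Klf5 for week 29 minus week 6 (-0.35 to 0.15), Foxe1 at week 15 against controls (-0.22 to 0.02), Sox2 for week 29 minus week 6 (-0.43 to 0.14), Tp63 for week 29 minus week 6 (-0.48 to 0.08). The cause of these changes was not tested.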

Other observations

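Week 29 replicate 1 differed from the other week 29 samples in several gene groups beside the factors described above. Its proliferation marker Mki67 was at 9.46, against 8.92 and 8.16 in week 29 replicates 2 and 3, and its Krt14 was at 13.17, against 12.29 and 11.94. Its score for the basal genes was 9.97, against 9.53 and 9.39, and its muscle score was 11.85, against 12.05 and 12.02. Its endothelial score was the lowest of all 12 arrays, 7.82.

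Week 15 replicate 3 had the lowest muscle score of all arrays, 9.66, and the lowest Myod1 signal, 4.63. It also had the highest signals of Tp63, Sox2, Klf4, Klf5, Grhl3 and Pitx1 of all 12 arrays. Its Foxe1 signal, 6.85, was the second of the 3 in its group.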
